A study of Mus musculus with 4 samples.

Results

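The genes described here encode the TGF-beta ligands (Tgfb1, Tgfb2 and Tgfb3), the latent TGF-beta binding proteins (Ltbp1, Ltbp2, Ltbp3 and Ltbp4) and the membrane proteins Nrros and Lrrc32, which display the latent cytokine on cell surfaces. They were chosen by name with earlier results of these data known, so counts over them are descriptions and no test. Every array probe whose accession belongs to one of them was taken. This gave 14 of the 56605 probes and 9 of the 23787 genes with a symbol. All 9 genes had a probe, 5 of them a single one and 4 of them several. The values come from lung tumours of KP mice on the C57BL/6J strain, a model in which Cre recombinase starts the tumours. Cre was brought into the trachea with an adenovirus 88 to 92 days before RNA was taken, in both groups. The control group was CD109+/+ (2 samples, both female) and the compared group CD109-/- (2 samples, replicate 1 male and replicate 2 female). The labels name 1 mouse per sample without saying how many tumours went into it, which promoter drove Cre or how Cd109 had been deleted, and do not call the replicates separate animals, and p-values here measure only the spread between these samples. Each sample was read on 1 single-colour Agilent array.

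TGF-beta is secreted in a form that cannot signal. Each precursor is cut by furin-type proteases, but its propeptide, the latency-associated peptide, stays wrapped around the mature growth factor. The latent complex is then anchored: LTBP1, LTBP3 and LTBP4 bind the propeptide through disulphide bonds and tie it to fibrillin microfibrils and fibronectin, LTBP2 sits on the same microfibrils without binding the propeptide, NRROS holds the complex on macrophages and other myeloid cells, and LRRC32 (GARP) holds it on regulatory T cells, platelets and some endothelium. Integrins, above all alpha-v beta-6 on epithelium and alpha-v beta-8, pull or open the anchored complex and free the ligand. CD109, the protein missing in the compared group, is a GPI-anchored membrane protein that binds TGF-beta and dampens its receptor signalling in several cell types. The comparison of genotypes therefore asks whether the transcripts that supply and store the ligand differed where CD109 was absent.

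The sequence just before the transcription start is shown for the genes on which the values below turn. Tgfb1 and Tgfb2 are shown because their starts are built differently, Ltbp1 and Ltbp4 because each has starts far apart within the gene, and Nrros because its upward difference was the largest with all 4 arrays. The RefSeq promoter table (build GRCm38.p6) held 10 windows for 7 of the 9 genes, among them 3 for Ltbp4, of which the inner pair lies 15 bases apart. Each line gives the 250 bases before a start, 5′ to 3′ on the gene's own strand. Capitals mark, on either strand, GGGCGG (the GC box), or TATAAA (the TATA box), or TGANTCA (the AP-1 site), or CAGACA (the SMAD-binding CAGA box), or GAGGAA (the core recognised by PU.1).
Tgfb1, chr7:25686752-25687001 (+): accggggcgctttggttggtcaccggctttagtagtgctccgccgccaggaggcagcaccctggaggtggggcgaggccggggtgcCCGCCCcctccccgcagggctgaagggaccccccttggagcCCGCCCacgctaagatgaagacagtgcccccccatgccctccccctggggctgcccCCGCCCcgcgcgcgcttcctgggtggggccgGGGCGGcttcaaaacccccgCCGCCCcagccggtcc
Tgfb2, chr1:186705990-186706239 (-): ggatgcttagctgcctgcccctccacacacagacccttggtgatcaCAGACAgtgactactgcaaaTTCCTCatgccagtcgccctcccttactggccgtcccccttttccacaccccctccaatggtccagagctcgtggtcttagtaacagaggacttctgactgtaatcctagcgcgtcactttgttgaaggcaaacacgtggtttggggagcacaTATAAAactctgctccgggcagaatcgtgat
Ltbp1 at its outer start, chr17:75005279-75005528 (+): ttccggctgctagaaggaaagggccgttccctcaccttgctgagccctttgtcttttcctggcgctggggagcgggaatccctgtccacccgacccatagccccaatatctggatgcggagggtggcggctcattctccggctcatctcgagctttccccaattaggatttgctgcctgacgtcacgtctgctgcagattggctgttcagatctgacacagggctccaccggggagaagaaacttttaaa
Ltbp1 at its inner start, chr17:75178531-75178780 (+): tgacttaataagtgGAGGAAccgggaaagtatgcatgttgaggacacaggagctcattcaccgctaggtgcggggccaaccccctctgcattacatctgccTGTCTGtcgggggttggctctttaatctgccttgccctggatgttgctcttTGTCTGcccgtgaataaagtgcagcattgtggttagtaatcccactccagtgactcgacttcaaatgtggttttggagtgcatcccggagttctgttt
Ltbp4 at its outer start, chr7:27337613-27337862 (-): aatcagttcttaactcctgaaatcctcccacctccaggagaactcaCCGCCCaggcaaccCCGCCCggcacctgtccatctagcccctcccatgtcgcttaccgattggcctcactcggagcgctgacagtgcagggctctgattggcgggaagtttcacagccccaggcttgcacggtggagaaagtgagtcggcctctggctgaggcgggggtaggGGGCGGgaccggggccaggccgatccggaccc
Ltbp4 at an inner start, chr7:27333664-27333913 (-): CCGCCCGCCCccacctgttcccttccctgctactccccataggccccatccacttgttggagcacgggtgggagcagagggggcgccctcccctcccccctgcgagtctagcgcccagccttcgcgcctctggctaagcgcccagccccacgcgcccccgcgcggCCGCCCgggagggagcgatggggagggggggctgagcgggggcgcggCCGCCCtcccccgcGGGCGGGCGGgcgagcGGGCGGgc
Nrros, chr16:32165595-32165844 (-): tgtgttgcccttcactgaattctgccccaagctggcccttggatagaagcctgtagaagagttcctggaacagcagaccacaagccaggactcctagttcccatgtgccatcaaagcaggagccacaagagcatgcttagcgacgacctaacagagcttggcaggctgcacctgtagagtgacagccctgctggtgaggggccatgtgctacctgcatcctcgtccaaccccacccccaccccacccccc

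The Tgfb1 window held 5 GC boxes and no TATA box in these letters, at 75.2% G and C. Tgfb2 was the one gene of the 7 with a TATA box in its window, beginning 31 bases before the start, and its window also held a CAGA box and a PU.1 core on the opposite strand. The inner Ltbp1 start had 2 CAGA boxes, 149 and 98 bases before it, and a PU.1 core, whereas the outer Ltbp1 window and the Nrros window held none of the 5 motifs. Both Ltbp4 regions carried GC boxes, 3 at the outer start and 7 at the inner one shown. GC boxes at the inner start overlap each other in part, and at the outer Ltbp4 start none do. Across the 32851 windows of the table, of the same length, 32.7% held a GC box, 12.4% a TATA box, 6.75% an AP-1 site, 17.1% a CAGA box and 23.3% a PU.1 core. The median window had 52.4% G and C. The AP-1 site was in 0 of the 10 windows. The array files do not say which part of a transcript a probe reads, so no probe can be assigned to one of these starts.

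All levels below are log2 of the array's processed signal (background-subtracted fluorescence) relative to that array's 75th percentile, so that 0 is the 75th percentile itself. Pairs of values are given in the order replicate 1, replicate 2. Differences are CD109-/- minus CD109+/+ with the standard error of limma's fit (SE, n = 2 per genotype), and folds are on the linear signal. A level of one probe cannot be set against the level of another, since probes differ in how brightly they bind, so each is compared only with itself across arrays. The 75th percentile of the processed signal lay between 557 and 688 on the 4 arrays, 64.3% to 67.0% of spots were well above background, 0 were saturated, and all 4 arrays shared 1 slide and 1 scan day. Over tested probes, CD109+/+ replicate 2 correlated at 0.982 with CD109+/+ replicate 1 and also with CD109-/- replicate 2, and the other pairs of arrays at 0.968 to 0.971, so the arrays did not pair by genotype. The Cd109 probe read -3.70 and -4.66 in the CD109+/+ pair and was not well above background on either CD109-/- array, at least 2.92-fold lower (limma adjusted p = 0.299). All 12 lung epithelial markers, Sftpc, Nkx2-1 and Epcam among them, gave signal well above background.

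Of the 14 probes, 12 had a higher mean in CD109-/- tumours and 2 a lower one, whereas 44.5% of the 35769 probes tested were higher. The median difference of the 14 probes was 0.48, against -0.05 over all tested probes. The former was 0.27 without CD109-/- replicate 2 and 0.39 with normexp background correction. In 8 probes both CD109-/- arrays lay above both CD109+/+ arrays (16.5% of all tested probes did), and in 1 probe both lay below (21.2% did). The difference was larger than the gap between replicates in both genotypes for 6 probes: 1 each of Tgfb2, Tgfb3, Ltbp1, Ltbp4, Nrros and Lrrc32. This was not counted over all tested probes, so whether 6 is more than the usual share is not known. With limma's Benjamini-Hochberg adjustment over all probes, 0 of the 14 passed 0.05, as did 0% of all probes, and their adjusted p-values ran from 0.627 to 0.969. At an unadjusted p under 0.05 there were 3, Nrros and Ltbp1 higher (3.87% of all tested probes were called in this direction) and a dim Ltbp4 probe lower (2.94%). That count did not hold when either CD109+/+ array was left out. Such a fit leaves 1 control and calls a smaller share of all probes too, and why the count fell was not tested. For a single probe, 2 arrays against 2 cannot give an exact two-sided permutation p below 0.333. In these bulk tumour samples, fewer cells of a type and less RNA per cell cannot be told apart.

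**Figure D1:**
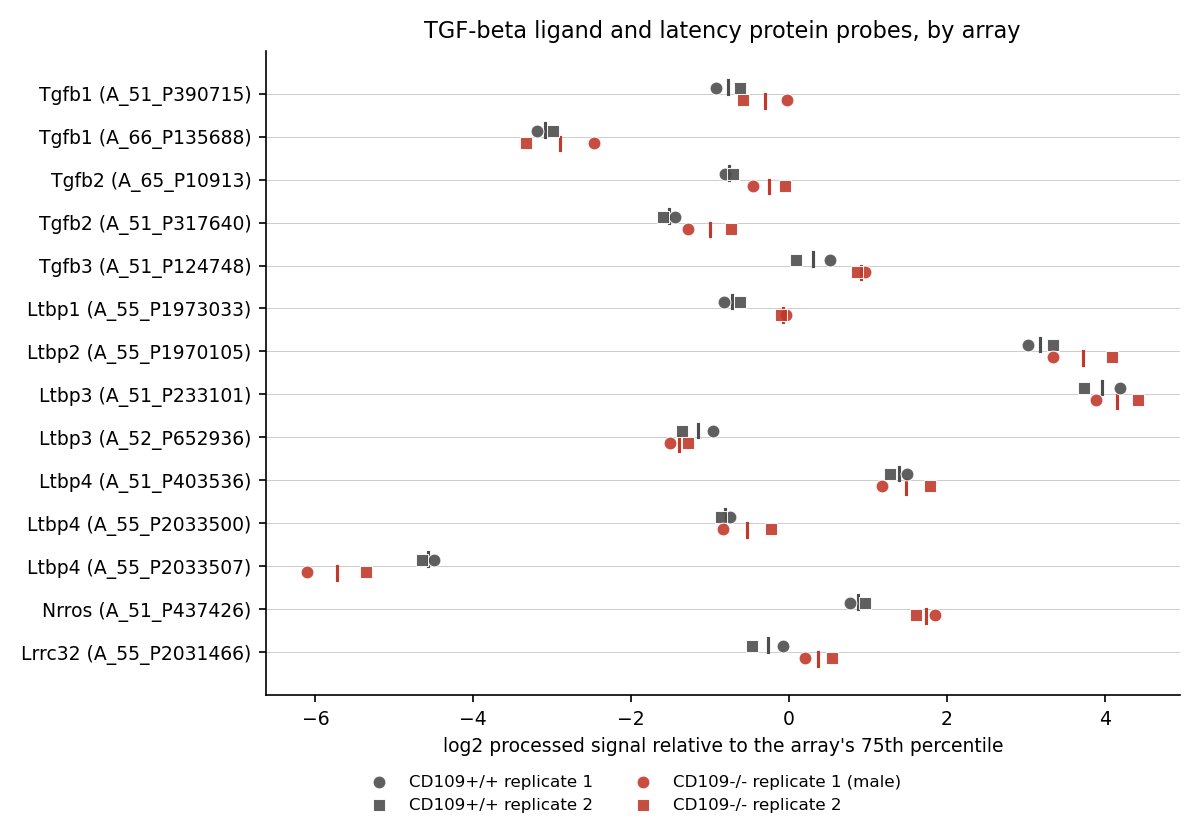
Log2 processed signal of the 14 probes on each of the 4 arrays (x axis, relative to the array's 75th percentile); grey symbols are CD109+/+, red symbols CD109-/-, circles replicate 1 and squares replicate 2, and short bars mark the genotype means. In 8 probes both red symbols lie to the right of both grey ones, with the clearest gaps for Nrros and Ltbp1, and in the dimmest Ltbp4 probe they lie to the left.

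The order of the ligands by size of difference changed with the array left out. Tgfb3, an isoform best known from palate fusion and lung development, read 0.51 and 0.09 in the CD109+/+ pair and 0.96 and 0.86 in the CD109-/- pair. The CD109-/- arrays lay close together and above both CD109+/+ arrays. The difference was 0.61 ± 0.26, or 1.52-fold (limma unadjusted p = 0.0690, adjusted p = 0.756). It ranged from 0.39 without CD109+/+ replicate 2 to 0.82 without CD109+/+ replicate 1.

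Tgfb2, the isoform whose propeptide lacks the integrin-binding RGD motif of the others, was read by a pair of probes named for different transcripts. Its brighter probe, A_65_P10913, read -0.81 and -0.71 in the CD109+/+ pair and -0.46 and -0.05 in the CD109-/- pair. The dimmer probe, A_51_P317640, read -1.45 and -1.60, then -1.28 and -0.73. In both probes CD109-/- replicate 2 was highest, CD109-/- replicate 1 came next, and the genotypes did not overlap. The differences were 0.51 ± 0.26 and 0.52 ± 0.29, and the gap between the probes changed by 0.01 between genotypes (exact two-sided permutation p = 1). Without CD109-/- replicate 2 they were 0.30 and 0.24, and without CD109-/- replicate 1 they were 0.71 and 0.79.

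Tgfb1, the isoform most abundant in immune cells and platelets, gave less even values. Its brighter probe, A_51_P390715, read -0.92 and -0.62 in the CD109+/+ pair and -0.03 and -0.58 in the CD109-/- pair. Only CD109-/- replicate 1 stood clear of the controls, since replicate 2 exceeded CD109+/+ replicate 2 by little. The difference was 0.46 ± 0.30, or 1.38-fold (limma adjusted p = 0.809), and it was 0.18 without CD109-/- replicate 1, the male, and 0.74 without CD109-/- replicate 2. The second probe, A_66_P135688, read -3.19 and -3.0, then -2.47 and -3.33. Here CD109-/- replicate 1 was the highest array and CD109-/- replicate 2 the lowest, so the genotypes overlapped. Its difference of 0.19 ± 0.36 became -0.24 without CD109-/- replicate 1, 0.63 without CD109-/- replicate 2 and 0.026 with normexp background correction. Between the 2 Tgfb1 probes the gap changed by -0.27 (exact two-sided permutation p = 0.333).

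Ltbp1, which carries latent TGF-beta into the fibronectin and fibrillin matrix, was the steadiest of the binding proteins. Its probe read -0.83 and -0.62 in the CD109+/+ pair and -0.04 and -0.10 in the CD109-/- pair. The replicates differed by 0.21 and 0.06, and the genotypes by 0.65 ± 0.23, or 1.57-fold (limma unadjusted p = 0.0394, adjusted p = 0.702). Leaving out each array in turn kept the difference between 0.54 and 0.75. With normexp background correction it was 0.46.

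Ltbp2, the family member that binds microfibrils but not the latent ligand, was also higher on average. Its probe read 3.03 and 3.34 in the CD109+/+ pair and 3.35 and 4.10 in the CD109-/- pair. Replicate 1 of the CD109-/- group barely exceeded CD109+/+ replicate 2, and replicate 2 stood apart. The difference was 0.54 ± 0.34 (limma adjusted p = 0.805). Leaving out CD109-/- replicate 2 gave 0.16, and leaving out replicate 1 gave 0.91.

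Ltbp3, which is needed for release of latent TGF-beta in bone and other tissues, showed no difference beyond its spread. The brighter probe, A_51_P233101, read 4.19 and 3.74 in the CD109+/+ pair and 3.89 and 4.42 in the CD109-/- pair. The second, A_52_P652936, named for the same transcript, read -0.97 and -1.35, then -1.51 and -1.28. Genotypes overlapped in both. Differences were 0.19 ± 0.31 and -0.23 ± 0.27, so the probes had opposite signs, and the gap between them changed by -0.43 (exact two-sided permutation p = 0.333). The brighter probe turned to -0.03 without CD109+/+ replicate 2 and to -0.07 without CD109-/- replicate 2. The second probe ranged from -0.43 to -0.04 over the arrays left out.

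**Figure D2:**
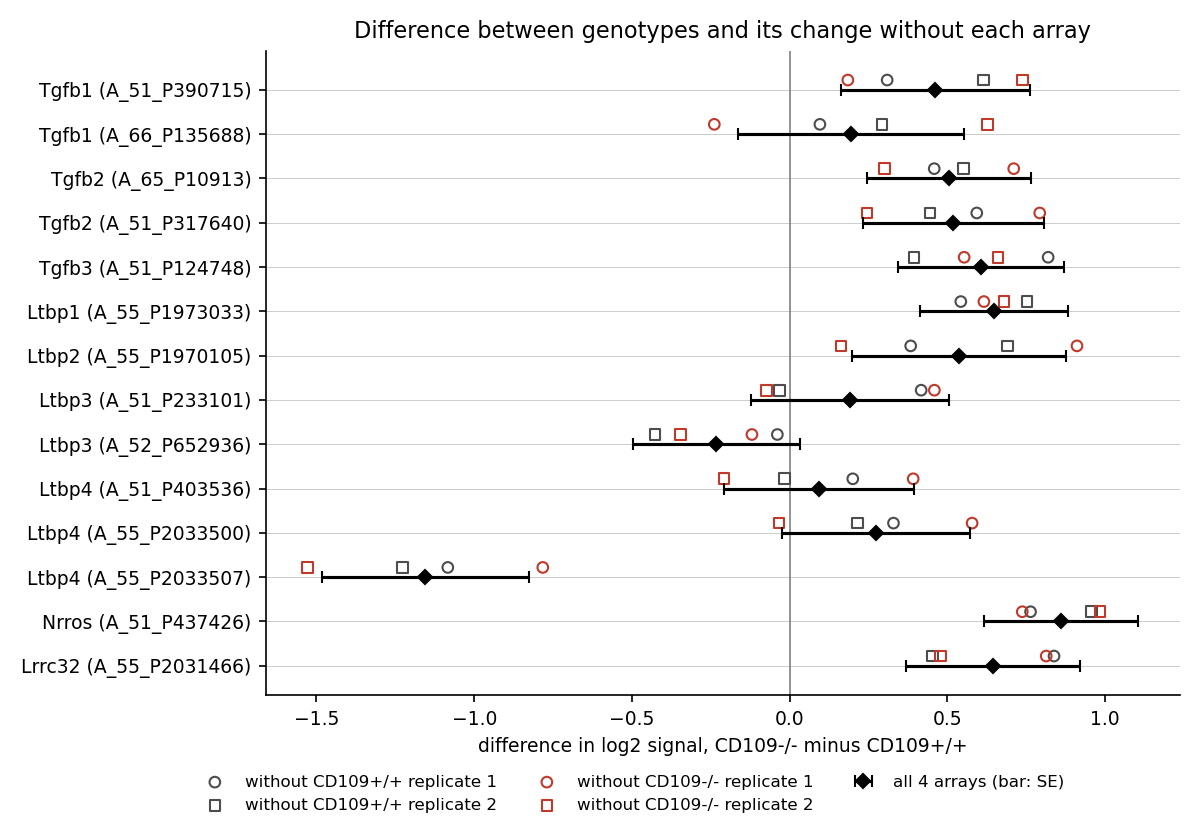
Difference in log2 signal between genotypes for the 14 probes (x axis, CD109-/- minus CD109+/+; black diamonds with SE, all 4 arrays), and the same difference without each array in turn (open symbols). Open symbols stay right of 0 for Tgfb2, Tgfb3, Ltbp1, Ltbp2, Nrros, Lrrc32 and the brighter Tgfb1 probe, and cross 0 for the second Tgfb1 probe, the brighter Ltbp3 probe and both brighter Ltbp4 probes.

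Ltbp4, which is required for elastic fibre assembly in the lung and holds TGF-beta1 there, was read by 3 probes whose differences had unlike signs. The brightest, A_51_P403536, read 1.5 and 1.28 in the CD109+/+ pair and 1.18 and 1.78 in the CD109-/- pair. A_55_P2033500, named for the same transcript (NM_175641), read -0.75 and -0.87, then -0.84 and -0.23. CD109-/- replicate 2 was the highest array for both and the genotypes overlapped. Their differences were 0.09 ± 0.30 and 0.27 ± 0.30, and without CD109-/- replicate 2 both turned negative, to -0.21 and -0.03. The brighter of them was also negative, at -0.02, without CD109+/+ replicate 2.

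The third Ltbp4 probe, A_55_P2033507, is named for another transcript (NM_001310678) and went the other way. It read -4.50 and -4.64 in the CD109+/+ pair and -6.10 and -5.35 in the CD109-/- pair, below both controls on both arrays. CD109-/- replicate 1 was not well above background, and its -6.10 lies below the lowest detected value on that array, -5.81, so the size of the difference is not well set. The measured difference was -1.16 ± 0.33 (limma unadjusted p = 0.0167, adjusted p = 0.627). Within each array this probe differed from the brightest Ltbp4 probe by -6.00 and -5.93 in the controls and by -7.28 and -7.14 without CD109, a change of -1.25 with groups that did not overlap (exact two-sided permutation p = 0.333, the lowest this design allows). The probe is dim. Its linear signal was 24.6 and 26.8 against 9.86 and 16.8, 1 of the 2 CD109-/- spots counted as well above background, and the scanner software's own error on the spot was 13.8% on both CD109+/+ arrays and 28.2% and 19.9% on the CD109-/- arrays. Across the 13 other probes that spot error was at most 10.9%. Normexp background correction, which adds an offset of 50 to every spot and so shrinks differences of dim probes most, brought the difference to -0.32. Leaving out CD109-/- replicate 1 gave -0.78, from the detected spot. Leaving out replicate 2 gave -1.53, which rests on the undetected spot alone.

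**Figure D3:**
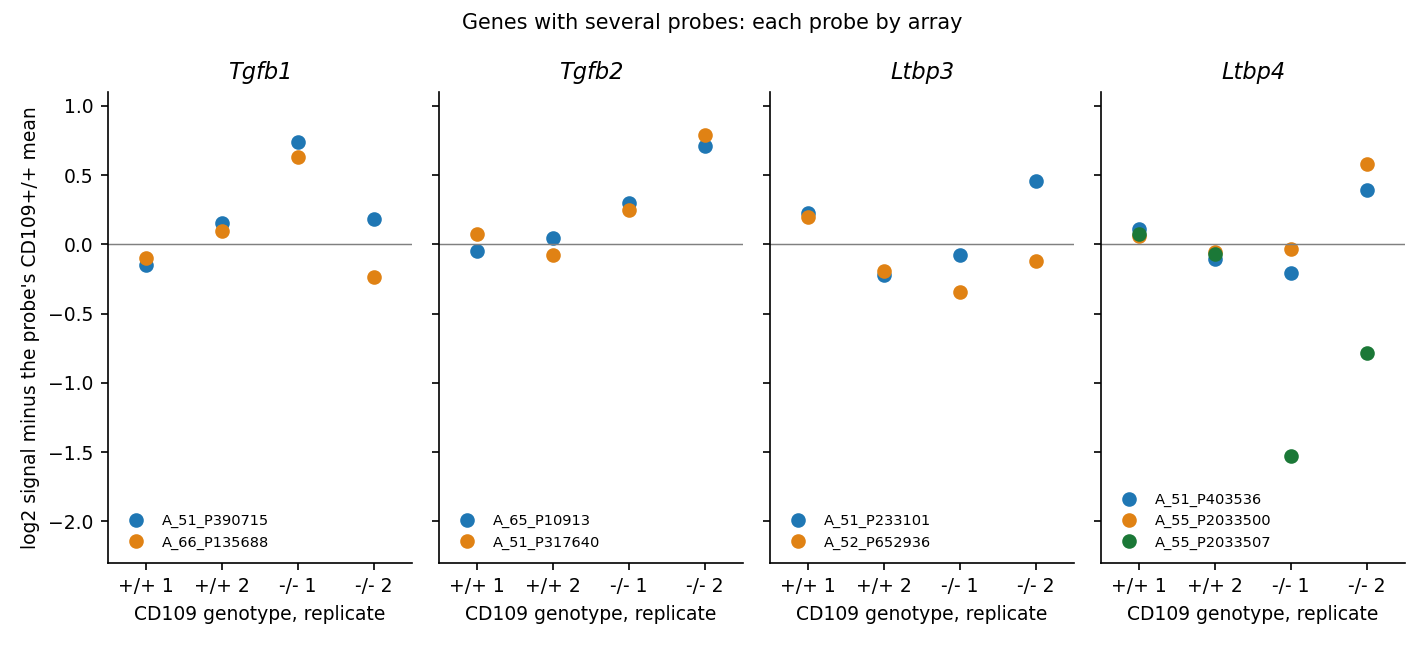
Log2 signal of each probe minus that probe's CD109+/+ mean (y axis) on the 4 arrays (x axis, genotype and replicate), for the 4 genes with several probes; each colour is 1 probe. The Tgfb2 probes run together, whereas the green Ltbp4 probe lies at -1.53 (a spot not well above background) and -0.78 in the CD109-/- tumours while the other Ltbp4 probes stay near or above 0.

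The surface proteins that display latent TGF-beta were both higher in CD109-/- tumours. Nrros read 0.78 and 0.97 in the CD109+/+ pair and 1.86 and 1.61 in the CD109-/- pair. The lower CD109-/- array lay above the higher CD109+/+ array, and the replicates differed by 0.19 and 0.25. The difference was 0.86 ± 0.24, or 1.82-fold (limma unadjusted p = 0.0168, adjusted p = 0.628), and it stayed between 0.74 and 0.98 without each array in turn. It was the largest upward difference of the 9 genes with all 4 arrays, but not with each array left out. Without CD109-/- replicate 1, Ltbp2 (0.91), Lrrc32 (0.81) and the dimmer Tgfb2 probe (0.79) exceeded the 0.74 of Nrros. Without CD109+/+ replicate 1, Lrrc32 (0.84) and Tgfb3 (0.82) exceeded its 0.76. Lrrc32 read -0.08 and -0.46 in the CD109+/+ pair and 0.21 and 0.54 in the CD109-/- pair. Here too the genotypes did not overlap, with a difference of 0.65 ± 0.28, or 1.56-fold (limma unadjusted p = 0.0660, adjusted p = 0.750). The Lrrc32 difference ran from 0.45 without CD109+/+ replicate 2 to 0.84 without CD109+/+ replicate 1.

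The CD109-/- replicates did not share one pattern over the 9 genes. CD109-/- replicate 1, the male, was the highest array for 5 probes (both of Tgfb1, and those of Tgfb3, Ltbp1 and Nrros). CD109-/- replicate 2 was the highest for 7 (both of Tgfb2, the brighter probe of Ltbp3, both brighter probes of Ltbp4, and those of Ltbp2 and Lrrc32). CD109+/+ replicate 1 was the highest for the 2 probes with negative differences, and CD109+/+ replicate 2 for 0. Over all tested probes the 4 arrays were the highest in 24.7%, 25.1%, 27.4% and 22.8%, in the same order. Sex and replicate cannot be told apart within the CD109-/- group.

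**Figure D4:**
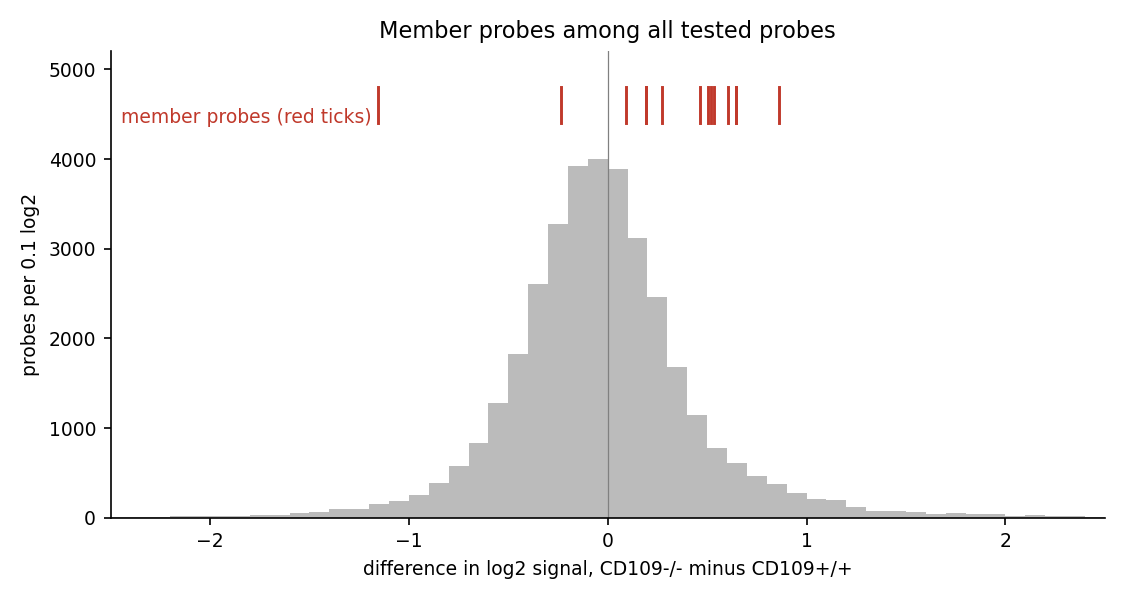
Number of tested probes per 0.1 log2 of difference (y axis) against the difference between genotypes (x axis, CD109-/- minus CD109+/+), with the 14 probes as red ticks. The grey distribution centres at -0.05, and 12 of the 14 ticks lie right of 0.

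Cell markers that could carry these transcripts differed on the same arrays, and their part in the differences was not tested. NRROS is a protein of myeloid cells. Of 19 macrophage and monocyte markers, 18 had higher means without CD109 (median difference 0.60), and 7 had an unadjusted p under 0.05 in that direction (5.05% of the 16443 genes tested did). Cd163, 1 of the 7, was well above background on 0 CD109+/+ arrays. It was tested through the CD109-/- arrays alone, so the filter favoured its direction. In 12 of the 19 both CD109-/- arrays lay above both CD109+/+ arrays, as for Nrros (16.5% of all tested probes did). In 1 marker both lay below (21.2% did). Both shares are over probes. The same shares over genes, the unit in which markers are counted, were not computed. The summed linear signal, in multiples of the 75th percentile, was 82.5 and 102 against 125 and 111. For fibroblasts and smooth muscle, which make much of the LTBP protein, 16 of 17 markers had higher means (median difference 0.79), 6 of them at an unadjusted p under 0.05. Tcf21, 1 of the 6, was well above background on 1 CD109+/+ array and was likewise tested through the CD109-/- arrays. In 13 of the 17 both CD109-/- arrays lay above both CD109+/+ arrays, and in 0 both lay below. The summed signal of these markers, 54.5 and 48.2 against 82.4 and 74.5, was higher on both CD109-/- arrays.

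For Lrrc32 the candidate cell lists gave less even values. Endothelial markers were higher in 10 of 10, with a median of 0.33 (0.14 without CD109-/- replicate 2 and 0.55 without CD109-/- replicate 1) and sums of 25.1 and 20.4 against 23.1 and 30.5, and 1 had an unadjusted p under 0.05. Of 8 measured T cell and regulatory T cell markers, 5 had higher means (median difference 0.18, but -0.02 without CD109+/+ replicate 2 and 0.11 without CD109-/- replicate 1), with sums of 4.58 and 4.17 against 4.57 and 4.44, and 1 had an unadjusted p under 0.05. That gene, Cd3d, a subunit of the T cell receptor complex, read -3.10 and -2.43, then -1.17 and -1.10, a difference of 1.63 ± 0.31 (limma adjusted p = 0.550); it was singled out after its values were seen. Foxp3, which defines regulatory T cells, differed by 0.06 ± 0.48, and Ctla4 was too dim in each genotype to be tested. Of 10 platelet and megakaryocyte markers 6 were measured, 3 were higher, and the sums of 9.86 and 54.0 against 10.7 and 23.2 followed no genotype. Itga2b, Gp9, Gp1ba and Gp5 were too dim in each genotype to be tested. Of 12 lung epithelial markers 5 had higher means and 7 lower. At an unadjusted p under 0.05 there was 1, Scgb1a1, higher by 1.43 ± 0.31 (limma adjusted p = 0.580). It too was singled out after its values were seen. Lung epithelial markers had a median difference of -0.19 (0.03 without CD109+/+ replicate 1, 0.16 without CD109-/- replicate 2 and -0.31 without CD109-/- replicate 1). Their sums were 1672 and 1448 against 1604 and 1463. Of 5 mesothelial markers 3 were higher, 2 of them at an unadjusted p under 0.05. Of these 3, Wt1 and Lrrn4 were well above background on 0 CD109+/+ arrays and Upk3b on 1. They were tested through the CD109-/- arrays alone, so the filter favoured this direction. The median difference of the 5 markers was 1.80, but 0.17 with normexp background correction and -0.36 when signal was required on all 4 arrays. Their sums were 105 and 26.8 against 80.3 and 20.9.

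The remaining pathway genes were read from lists, a gene standing by its brightest tested probe. By that reading the 9 genes themselves were higher in 9 of 9 with a median of 0.54, against 50.3% of all genes higher and a median of 0.00. In none of the lists did a gene pass limma's threshold, and the 15 genes named here had adjusted p-values from 0.299 to 0.895. Genes listed around latent TGF-beta activation were higher in 12 of 19, median 0.18. The median was -0.07 without CD109-/- replicate 1, -0.02 without CD109+/+ replicate 2, 0.40 without CD109+/+ replicate 1 and 0.50 without CD109-/- replicate 2. At limma's unadjusted p under 0.05 there was 1 in each direction (5.05% of all genes were so called higher and 2.48% lower). The list also holds furin-type proteases, which cut the precursor, and a protease inhibitor gene, and these had lower means. Mmp2, a protease that can cleave latent TGF-beta, differed by 1.13 ± 0.27 and the integrin subunit Itgb3 by 0.86 ± 0.37 (0.50 to 1.21 over the arrays left out), while Plg, the precursor of plasmin, was at least 1.74-fold lower, being not well above background in CD109-/- tumours. Itgb8, a subunit of alpha-v beta-8, was too dim in each genotype to be tested.

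Microfibril proteins and other partners of the LTBPs were higher in 15 of 19, median 0.31 (0.54 without CD109+/+ replicate 1 and 0.52 without CD109-/- replicate 1), with 6 higher and 0 lower at an unadjusted p under 0.05. The largest by moderated t were the microfibril gene Mfap5 (1.55 ± 0.46), Adamtsl2 (1.29 ± 0.40), whose product binds LTBP1 and fibrillin, and the fibulin gene Fbln1 (0.86 ± 0.25). Mfap5 ranged from 1.02 to 2.09 over the arrays left out. The Adamtsl2 and Fbln1 probes are dim, and normexp background correction gave 0.54 and 0.27. Receptors and co-receptors were higher in 5 of 9, median 0.15 (-0.11 without CD109+/+ replicate 1 and 0.03 without CD109-/- replicate 1), with 1 gene, Cd109 itself, under 0.05 and lower. The endothelial TGF-beta receptors Acvrl1 and Eng differed by 0.48 ± 0.30 and 0.38 ± 0.27 (0.24 to 0.72 and 0.16 to 0.61 over the arrays left out), and a dimmer Acvrl1 probe by 0.84. SMADs, SMURFs and other genes of SMAD signalling, read as 1 list, were lower in 9 of 13, median -0.11 (-0.03 without CD109+/+ replicate 1). The ubiquitin ligase gene Smurf1 (-0.86 ± 0.34, from -1.16 to -0.57 over the arrays left out) was the 1 gene under 0.05. The signal transducer Smad3 and the inhibitory Smad6 differed by -0.21 ± 0.25 and -0.26 ± 0.26 (-0.36 to -0.06 and -0.46 to -0.05 over the arrays left out), and a further Smad3 probe by 0.05. TGF-beta target genes, a list that holds Ltbp2 and shares Col1a1, Col1a2, Col3a1, Acta2 and Tagln with the fibroblast markers, were higher in 22 of 32, median 0.24 (0.09 without CD109-/- replicate 1, 0.10 without CD109+/+ replicate 2 and 0.44 without CD109+/+ replicate 1), with 5 higher and 1 lower at an unadjusted p under 0.05. Col3a1, a fibrillar collagen, differed by 1.27 ± 0.23 and the crosslinking enzyme Lox by 1.08 ± 0.29, while the collagen-binding integrin subunit Itga11 differed by -2.17 ± 0.57 (-2.92 to -1.42 over the arrays left out).

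**Figure D5:**
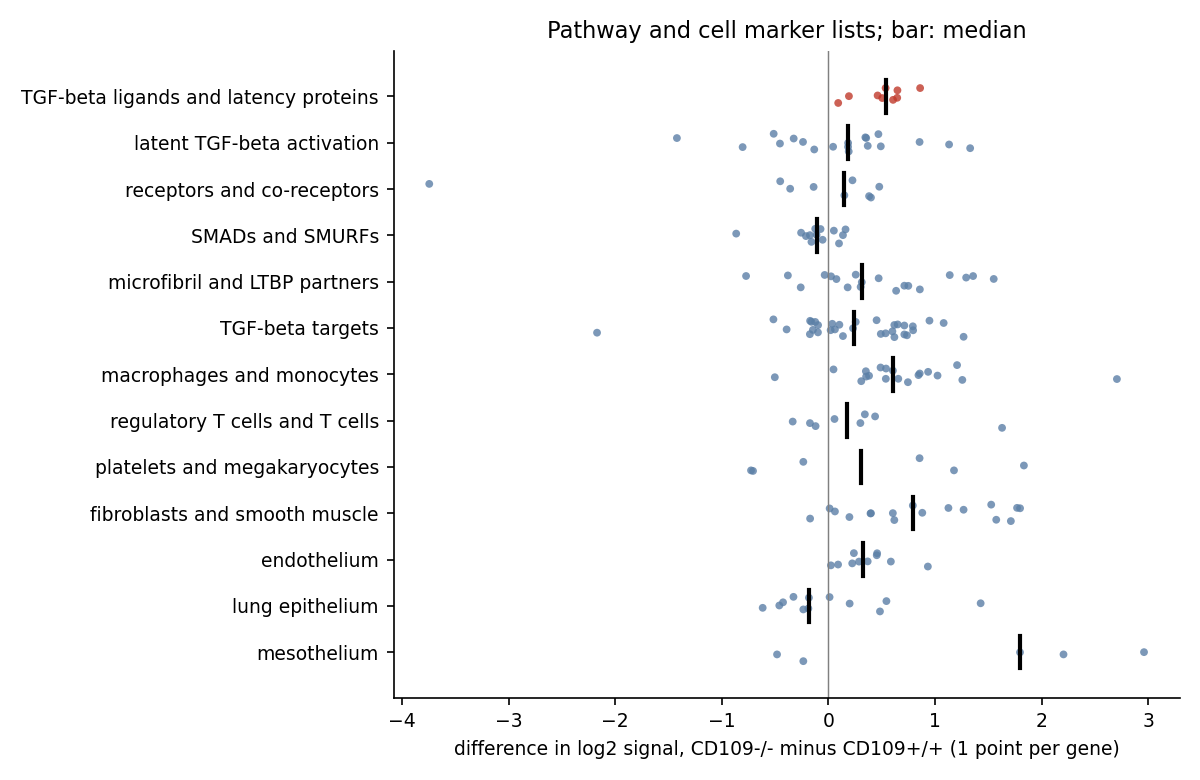
Difference in log2 signal (x axis, CD109-/- minus CD109+/+) of each gene, 1 point per gene by its brightest tested probe, for the TGF-beta ligands and latency proteins (red) and the pathway and cell marker lists (blue), with a black bar at each median. The red points lie between 0.09 and 0.86, and the macrophage and fibroblast lists have medians of 0.60 and 0.79.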

How the data were processed

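Total RNA of 4 lung tumour samples (2 CD109+/+, 2 CD109-/-, grouped by the labels) was labelled with Cy3 from 100 ng and hybridised to single-colour Agilent arrays, per the labels' protocols. Per the file headers, Agilent Feature Extraction 12.1.0.3 wrote the scanner files, which hold linear intensity values, the processed signal being background-subtracted and detrended. A table deposited by the authors held the same intensity values times 1 constant per array (1.19, 1.21, 1.04 and 1.08). Its column medians were 58.8, 76.1, 59.5 and 69.2. It is linear and not centred, and how the constants were set is unknown. The table was also run through the comparison, but scaling each array to its own percentile cancels such a constant. Its results therefore equal the main ones by construction and are no separate check. Flags of the scanner software for background, saturation and outliers, deposited by the authors as 0 or 1, set which spots were used.

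Outlier-marked spots (58 to 73 per array) were dropped, and repeated spots of a probe averaged. A probe was tested when both arrays of 1 genotype or the other showed it well above background; 35769 were, after dropping 7 without a usable spot on every array. All 14 probes described passed, 13 of them on all 4 arrays. Names came from RefSeq accessions of assembly GRCm38.p6 (34566 probes); the array files name build mm9, so gene coordinates were not used. In the lists, Cripto and Sara matched no symbol. Genotypes were compared with limma 3.58.1 in R 4.3.3 (lmFit, eBayes, 2 residual and 3.02 prior degrees of freedom), two-sided, with Benjamini-Hochberg adjustment over all probes. A bound for a probe not well above background in a genotype used, per array, the higher of the lowest detected value on that array and the probe's own. The procedure was tested on simulated data. The rule for naming genes was all 9 genes, Cd109, and from each pathway list the 3 genes with the largest absolute moderated t. Members and lists were chosen with earlier results of these data known. The number of arrays limits precision. Alternatives were other scalings and background correction, other filters, a variance trend, a replicate block, sex as a covariate and leaving out each array. The authors' values were run too, but they repeat the main fit. With a single male array, sex as a covariate is the same fit as leaving out CD109-/- replicate 1. Normexp ran on median spot signals. Boundaries of significance were 0.05 for adjusted and unadjusted p.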

Additional observations from a re-analysis of the deposited data

How the results depend on the processing

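No probe passed limma's adjusted threshold of 0.05 under any alternative except without CD109-/- replicate 2, where 2 probes did and 0 of the 14 were among them (0 to 2 over the arrays left out). The count of 14 probes higher in CD109-/- tumours was 12 under every scaling, filter and background setting. It was 11 with sex as a covariate, and 9 to 12 with an array left out. Because CD109-/- replicate 1 is the only male, the sex covariate gives the same fit as leaving that array out. It is no separate adjustment for sex. The count at limma's unadjusted p under 0.05 fell when either CD109+/+ array was left out, in fits that leave 1 control and call a smaller share of all probes too. With the replicate block, which the labels do not give as a pairing (same-numbered arrays correlated at 0.347 in their deviations), 3 of the 14 were under 0.05, 11.0% of all tested probes were, against 6.81% without it, and 0 probes passed the adjusted threshold. Signs turned for the second Tgfb1 probe (-0.24 with sex as a covariate, -0.24 to 0.63 with an array left out), the brighter Ltbp3 probe (-0.074 to 0.46), the brightest Ltbp4 probe (-0.21 to 0.39) and Ltbp4 probe A_55_P2033500 (-0.033 to 0.58), and for no other of the 29 probes compared, of which the dim Ltbp4, Cd109 and Plg probes could not be run with signal required on all 4 arrays. The cause was not tested. Among the lists, the median of the latent TGF-beta activation genes turned to -0.02 when CD109+/+ replicate 2 was left out and to -0.07 when CD109-/- replicate 1 was. That of receptors became -0.11 without CD109+/+ replicate 1, and that of epithelial markers 0.16 without CD109-/- replicate 2. T cell markers gave -0.02 with normexp, platelet markers -0.27 without the filter on dim probes, and mesothelial markers -0.36 when signal was asked for on all 4 arrays, which leaves fewer genes. Signal over background limits these 3 dim probes; with normexp the Cd109 difference was -0.72 and that of Plg -0.40.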
